A study of Mus musculus with 4 samples.

Results

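Mitochondrial ribosomal protein genes were examined across the cell types of the embryonic mouse ventricle, with and without deletion of the transcription factor gene *Ets1* in endothelium. Genes were taken by symbol, as Mrpl (large subunit) or Mrps (small subunit) followed by a digit, which gave 78 of the 32285 genes counted, 49 named for the large and 29 for the small subunit. Values by subunit below follow these names, although *Mrps18a* and *Mrps30* are known to encode large subunit proteins and *Mrps36* neither kind. All 78 were protein coding in the annotation, lay on 17 chromosomes, and had a median gene length of 7899.5 bp against 12268 bp over all counted genes. *Mrpl34*, at 789 bp, was the shortest and *Mrps28*, at 121773 bp, the longest. Mitochondrial ribosomes translate the mRNAs that mitochondrial DNA encodes, all of them for subunits of the respiratory chain and ATP synthase. Their proteins are encoded in the nucleus, made by cytosolic ribosomes and imported into the mitochondrion, where they assemble on rRNA transcribed from mitochondrial DNA. Heart muscle is rich in mitochondria, and defects in several of these genes are known to cause cardiomyopathy in human infants.

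Single-cell RNA sequencing (10x 3′ chemistry) was performed on ventricles of C57BL/6 embryos at embryonic day 14.5, dissociated with trypsin. Control embryos carried Tie2Cre with 1 floxed and 1 wild-type *Ets1* allele (Tie2Cre;*Ets1* fl/+), and *Ets1* eKO embryos carried Tie2Cre with both alleles floxed (Tie2Cre;*Ets1* fl/fl), so Cre was present in both groups. Tie2Cre is known to be active in endothelium, in blood cells and in mesenchyme derived from endothelium, so the deletion may not be limited to endothelial cells. Each group had 2 libraries, each from 3 pooled embryos of either sex that were not genotyped for sex, and all 4 libraries carried the batch number 1. The control libraries held 12641 and 7949 barcodes with 124140739 and 76931208 UMIs, and the eKO libraries 10010 and 14951 barcodes with 95131419 and 102872196 UMIs. Median depth was 8630.0 and 8369 UMIs per barcode in the controls, 8222 in eKO replicate 1 and 5632 in eKO replicate 2, the shallowest of the 4. Between 19 and 47 barcode sequences were shared by any pair of libraries. With pooled embryos and 2 libraries a group, p-values here measure only the spread between these 4 libraries.

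Cells were gated by marker genes into 7 classes, which held 35234 of the 41605 cells kept: 20340 cardiomyocyte-like (CM), 4227 mural endocardial (mEndo-like), 1514 coronary vascular endothelial (cvEC-like), 449 valve endocardial (vEndo-like), 7272 fibroblast-like, 637 epicardial-like and 795 immune-like cells. The gate used no mitochondrial ribosomal protein gene. In each class, between 1 (vEndo-like) and 6 (CM) of its own markers were among its 10 leading genes, and 0 markers of another class were. The gate used these markers, so this does not check the class names. The fibroblast-like class was led by *Sox9*, *Ctnna2* and *Pde1a*, which are outside the gate's lists, with *Lum* and *Postn* of its own list among the 10. Mesenchyme derived from endothelium was not told apart from fibroblasts in it. Epicardial-like cells also carried fibroblast markers, summing to 9325, 7985, 7370.4 and 6534 CPM (UMIs scaled by all UMIs of that class in that library; control replicates 1 and 2, then eKO replicates 1 and 2, the order used throughout) against 3144, 3335, 2751 and 3003 CPM for epicardial markers. *Col1a1* had a mean of 2385 CPM in epicardial-like and 1085 CPM in fibroblast-like cells, and *Postn* 14.7 and 1136 CPM (picked after values were seen). The same fibroblast list summed to 7189, 6599, 7441 and 6412 CPM in fibroblast-like cells. This was less than in epicardial-like cells in both controls and in eKO replicate 2. The source of the fibroblast transcripts in epicardial-like cells was not tested. Cells with mixed scores, as doublets would have, were left ungated and no doublet caller was run. Transcripts of other cell types were counted within classes: the 9 cardiomyocyte markers summed to 779.3, 391.5, 712.9 and 964.0 CPM in mEndo-like cells, with *Tnnt2* the most abundant, against 41494, 40636, 41831 and 39684 CPM in CMs. Free RNA, doublets and misgated cells cannot be told apart here.

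*Ets1* itself checked the labels. In mEndo-like cells it stood at 280.8, 265.3, 121.6 and 94.4 CPM, a fitted log2 fold change (eKO over control, as for all changes below) of -1.28 ± 0.14 (SE; edgeR quasi-likelihood test, Benjamini-Hochberg adjusted p over the genes tested in the class = 0.000654). It was 372.3, 333.8, 177.9 and 124.7 CPM in cvEC-like cells (-1.15 ± 0.18, edgeR adjusted p = 0.0118) and 263.8, 260.5, 96.1 and 118.5 CPM in vEndo-like cells (-1.24 ± 0.19, adjusted p = 0.0175). Both eKO libraries lay below both controls in all 3 endothelial classes. The vEndo-like call was lost without control replicate 1 (-1.22, adjusted p = 0.0613) and without control replicate 2 (-1.26, adjusted p = 0.278). Fibroblast-like cells had 93.2, 83.0, 58.7 and 56.8 CPM (-0.52 ± 0.12, edgeR adjusted p = 0.162). In CMs the level was 11.3, 9.71, 10.3 and 12.2 CPM and the groups overlapped, while in epicardial-like cells (8.58, 12.5, 13.0 and 17.7 CPM) and immune-like cells (24.1, 16.5, 15.96 and 14.4 CPM) they did not, with edgeR adjusted p-values of 0.573, 0.807 and 0.999. UMIs of the 3′ end are counted even where they come from transcripts that lack an internal exon, so the remaining *Ets1* counts do not measure remaining protein.

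To show what many of these genes share upstream, the 250 bases before and 50 bases after the annotated start were read from RefSeq promoter sequences (GRCm38.p6), which covered 69 of the 78 genes. Letters of the ETS motif (CCGGAAG, or CTTCCGG on the other strand) were present in 25 of them, or 36.2%, against 9.12% of all 27025 promoters and 18.6% of the 9894 promoters of genes tested in mEndo-like cells. The NRF1 letters (GCGCA, any base, then GCGC, read on either strand) were present in 13 (18.8%), against 4.78% of all promoters and 10.7% of those of genes tested. YY1 letters (AAGATGG) occurred in 13 (18.8%), against 6.48 and 7.24%. SP1 letters (GGGCGG) occurred in 34 (49.3%), more than the 35.9% of all promoters but less than the 65.4% of genes tested (both strands searched throughout). Together 34 genes held ETS or NRF1 letters, 4 held both, and 14 held none of the 4 motifs. A match describes letters in this window, not a bound site. Of 36 genes named by rule (given below) with a promoter sequence, 9 are printed, picked for holding ETS or NRF1 letters. These letters lay in a stretch of at least 60 bases outside exons, so the 9 do not stand for the rest. The sequences below run 5′ to 3′ on the gene's strand up to 100 bases before the start, for genes described in the following paragraphs; capitals mark the NRF1 letters in *Mrpl12* (chr11:120484537-120484612, plus strand) and *Mrpl17* (chr7:105811100-105811187, minus strand), and the ETS letters in *Mrpl22* (chr11:58171564-58171660, plus), *Mrpl34* (chr8:71464826-71464925, plus), *Mrpl52* (chr14:54426809-54426908, plus), *Mrpl58* (chr11:115403652-115403751, plus), *Mrps18a* (chr17:46110904-46110985, plus), *Mrps22* (chr9:98601680-98601779, minus) and *Mrps27* (chr13:99344706-99344785, plus).
Mrpl12: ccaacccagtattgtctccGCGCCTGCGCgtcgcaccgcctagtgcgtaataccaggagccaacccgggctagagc
Mrpl17: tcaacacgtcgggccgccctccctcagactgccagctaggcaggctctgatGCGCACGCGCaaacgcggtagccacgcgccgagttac
Mrpl22: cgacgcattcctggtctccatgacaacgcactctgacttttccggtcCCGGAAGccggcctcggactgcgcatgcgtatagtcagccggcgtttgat
Mrpl34: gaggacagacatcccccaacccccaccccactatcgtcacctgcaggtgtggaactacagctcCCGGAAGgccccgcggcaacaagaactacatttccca
Mrpl52: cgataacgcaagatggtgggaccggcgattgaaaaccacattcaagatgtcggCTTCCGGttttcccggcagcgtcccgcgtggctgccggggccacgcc
Mrpl58: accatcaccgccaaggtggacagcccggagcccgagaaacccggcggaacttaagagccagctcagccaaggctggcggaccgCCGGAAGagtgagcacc
Mrps18a: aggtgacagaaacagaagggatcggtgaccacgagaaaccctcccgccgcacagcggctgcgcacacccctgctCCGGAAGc
Mrps22: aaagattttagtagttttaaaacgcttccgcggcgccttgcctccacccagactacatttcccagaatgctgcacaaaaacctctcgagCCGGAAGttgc
Mrps27: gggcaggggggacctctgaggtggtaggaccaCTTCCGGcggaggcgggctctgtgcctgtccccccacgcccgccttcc

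Levels of the 78 genes were set in order first. Mean level over libraries and classes ran from 8.87 CPM for *Mrps2* to 176.5 CPM for *Mrpl52*, with a median of 66.3 CPM, on the scale of UMIs captured, which are not divided by gene length. Because 3′ counting captures genes with unequal efficiency, this order is one of UMIs counted and not of transcripts or protein. The 5 most counted genes, *Mrpl52*, *Mrpl42*, *Mrps33*, *Mrpl34* and *Mrps24*, made up 14.4% of the summed level. Large and small subunit genes summed to 5882 and 2815 CPM in CMs of control replicate 1. All 78 passed the filter on low counts in 5 classes, and 77 did in vEndo-like and immune-like cells, where *Mrps2*, at 5 to 9 UMIs per vEndo-like library, did not. Overlap with other genes limits a few values: *Mrps6*, *Mrps24* and *Mrps34* overlap another counted gene on the same strand, and 30 overlap one on the other strand. *Mrps36*, although named as a small subunit protein, is known to encode a component of the 2-oxoglutarate dehydrogenase complex of the citric acid cycle.

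To ask how cell types differ in these genes, summed levels were first set side by side. CMs carried the highest level, 8697, 8074, 8961 and 10150.3 CPM, and cvEC-like cells the second, 6339, 6169, 6505 and 7355 CPM. The other 5 classes lay close together, at 4701, 4574, 5163 and 5898 CPM in mEndo-like cells and 4960, 4917, 5016 and 5812 CPM in vEndo-like cells. Means over the 4 libraries were 5084 ± 599 CPM (SD, n = 4) for mEndo-like, 5176 ± 426 for vEndo-like, 5147 ± 391 for fibroblast-like, 5006 ± 373 for epicardial-like and 5159 ± 387 for immune-like cells, differences smaller than their SDs. CMs were the class with the highest mean for 63 of the 78 genes and cvEC-like cells for 11. *Mrpl24* and *Mrpl48* were highest in epicardial-like, *Mrpl44* in mEndo-like and *Mrpl9* in vEndo-like cells, while epicardial-like cells were lowest for 29 and immune-like cells for 23.

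**Figure D1:**
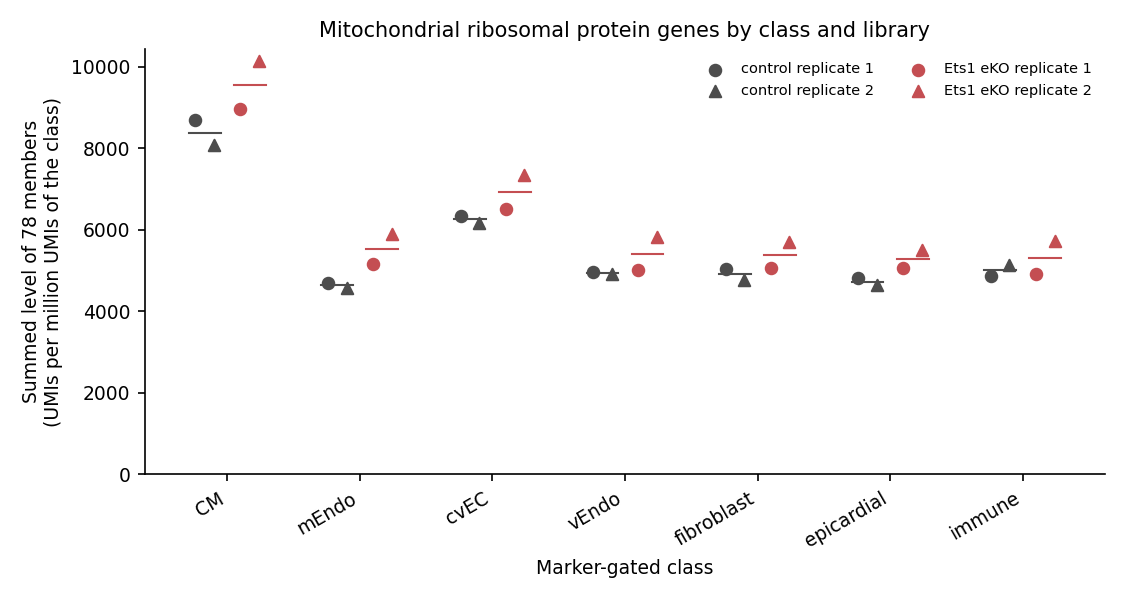
Summed level of the 78 mitochondrial ribosomal protein genes (CPM, y axis) in each marker-gated class (x axis), with 1 point per library (control grey, *Ets1* eKO red; circles replicate 1, triangles replicate 2) and lines at group means. CM-like libraries sit between 8074 and 10150.3 CPM and mEndo-like libraries between 4574 and 5898 CPM, with eKO replicate 2 highest in every class.

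CMs were then compared with mEndo-like cells of the same libraries. Nearly the whole set was higher in CMs: 76 of 78 genes passed the test (edgeR, adjusted over 15417 genes tested), where 39.2% of all genes did, and 1 was lower, where 37.3% of all genes were. The median log2 difference was 0.91, against 0.03 over all genes tested and 0.29 over genes in the same decile of length and of expression (genes of like length and expression), and it was 0.93 for the large and 0.90 for the small subunit. *Mrps36* stood at 225.3, 214.5, 241.9 and 236.4 CPM in CMs and 42.1, 37.5, 37.2 and 39.4 CPM in mEndo-like cells (log2 2.87 ± 0.07, edgeR adjusted p = 1.6e-08). *Mrpl42* stood at 476.1, 408.0, 461.4 and 532.9 CPM in CMs and 94.6, 96.3, 114.2 and 144.4 CPM in mEndo-like cells (2.39 ± 0.08, adjusted p = 5.1e-08). For both genes the lowest CM library lay far above the highest mEndo-like library. *Mrpl23*, whose protein lies at the exit of the peptide tunnel, was 215.5, 201.4, 220.7 and 223.65 CPM against 43.4, 37.2, 36.1 and 37.8 CPM (2.80 ± 0.07, edgeR adjusted p = 2.0e-08).

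*Mrpl17*, a large subunit gene, was the exception, with 50.8, 43.5, 49.5 and 65.6 CPM in CMs and 85.2, 76.7, 95.9 and 123.8 CPM in mEndo-like cells (log2 -0.54 ± 0.06, edgeR adjusted p = 4.2e-05). Every library had less of it in CMs. *Mrpl44*, an RNase III-like large subunit protein, was the only gene not called, at 24.9, 20.5, 22.6 and 29.0 CPM in CMs and 32.1, 22.9, 25.1 and 30.9 CPM in mEndo-like cells (0.12 ± 0.07, adjusted p = 0.165). Its CPM was lower in CMs in each of the 4 libraries, so the sign of its difference depended on TMM scaling. The gene on its other strand, *Wdfy1*, varied between libraries too, at 48.3, 20.5, 16.6 and 29.4 CPM in mEndo-like cells. Scaled by total counts instead of TMM, the median of all genes moved to -0.28 and that of the 78 genes to 0.60. With this scaling 71 were called higher (29.1% of all genes) and 2 (*Mrpl17* and *Mrpl44*) lower (49.9%).

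The mitochondrial setting of this difference was described with related gene lists. Of all 15417 genes tested, 39.2% were called higher in CMs and 37.3% lower, and each count below is to be set beside these shares. All 5 mitochondrial ribosome proteins with other symbols (*Dap3*, *Ptcd3*, *Chchd1*, *Aurkaip1* and *Gadd45gip1*) were called higher in CMs than in mEndo-like cells (median log2 1.00). So were all 13 mitochondrially encoded mRNAs (median 1.17), which these ribosomes translate, and 95 of 97 nuclear respiratory chain genes tested (median 2.06). The pattern of the nuclear list also takes in Ndufaf assembly factors, and *Ndufab1* is in the assembly list as well. Factors that serve the ribosome differed by less: 20 of 29 assembly factors were higher and 1 lower (median 0.45), 11 of 15 translation factors were higher (0.50), and 17 of 22 mitochondrial tRNA ligases were higher (0.57). Of genes for mitochondrial DNA upkeep and transcription, 6 of 9 were higher and 1 lower (0.33), and of regulators such as *Nrf1*, *Gabpa* and *Ppargc1a*, 5 were higher and 5 lower (0.01). Of cytosolic ribosomal protein genes 31 of 96 were higher and 22 lower (0.01), neither above the share of all genes. No shift was read for this list or for the regulators.

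Against fibroblast-like cells the picture was nearly the same in size. Of the 78 genes, 77 were higher in CMs (40% of all 16012 genes tested) and 1 was lower (39% of all genes), with a median log2 difference of 1.11, against 0.01 over all genes and 0.29 over genes of like length and expression. *Mrpl42* differed most (2.38 ± 0.05). *Mrpl12*, next to it in size, whose product forms the flexible stalk of the large subunit and also binds the mitochondrial RNA polymerase, had 328.0, 310.8, 342.7 and 442.0 CPM in CMs and 81.4, 79.6, 88.2 and 125.6 CPM in fibroblast-like cells (2.38 ± 0.04, edgeR adjusted p = 1.3e-09). The CM values were all above the fibroblast-like ones by a wide margin. *Mrps36* followed (2.03 ± 0.05), and *Mrpl17* was again lower in CMs (-0.43 ± 0.06, adjusted p = 0.000248). By total counts the median of all genes moved to -0.43 and that of the 78 genes to 0.67, with 74 called higher (24.7% of all genes) and 1 lower (58.1%). Both comparisons share the CM sums, so they are not independent of each other.

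**Figure D2:**
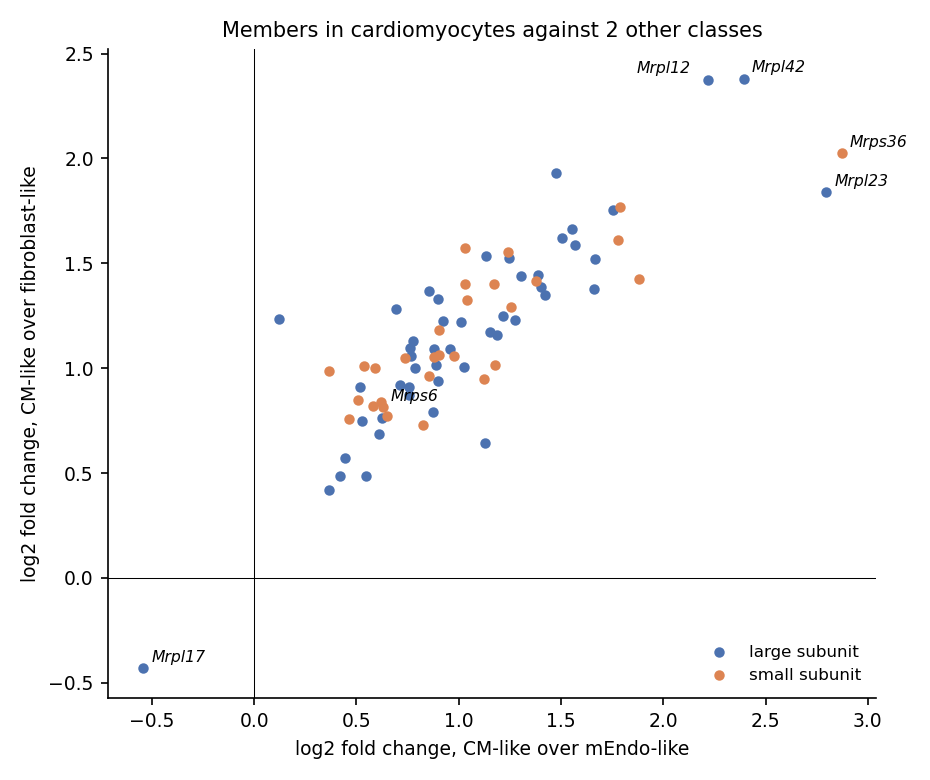
Log2 difference of each mitochondrial ribosomal protein gene between CM-like and mEndo-like cells (x axis) and between CM-like and fibroblast-like cells (y axis), 1 point per gene, large subunit blue and small subunit orange, with 6 genes named. With TMM scaling all points but *Mrpl17* lie above 0 on both axes, and *Mrps36* lies farthest right at 2.87; both axes share the CM-like sums.

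Among endothelial classes, mEndo-like cells carried less than cvEC-like cells. Of the 78 genes, 0 were higher (34% of all 12310 genes tested) and 68 were lower (32.9% of all genes), by edgeR. DESeq2 called 66 lower (28.9% of all genes) and 0 higher (25.7%). The median log2 difference was -0.47, against 0.04 over all genes and -0.29 over genes of like length and expression. *Mrps6* differed most, at 36.3, 36.7, 50.6 and 65.9 CPM in mEndo-like and 102.0, 108.0, 114.7 and 142.3 CPM in cvEC-like cells (-1.48 ± 0.08, edgeR adjusted p = 1.5e-08). *Mrpl17* stood at 161.7, 146.5, 172.2 and 196.3 CPM in cvEC-like cells (-0.999 ± 0.06, adjusted p = 4.5e-08). *Mrps18b* stood at 16.1, 22.1, 22.2 and 29.5 CPM in mEndo-like and 28.6, 38.9, 38.1 and 47.4 CPM in cvEC-like cells (-0.93 ± 0.09, adjusted p = 1.4e-06). For *Mrps6* and *Mrpl17* every cvEC-like library was above every mEndo-like one, and for *Mrps18b* the values overlapped across libraries but not within any library.

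Cycling cells were more frequent in the cvEC-like class, at 61.2, 74.4, 63.9 and 68.8% of cells against 17.0, 24.5, 24.0 and 35.9% in mEndo-like cells, and the part of this in the class difference was not tested. All 10 S phase and all 10 G2 and mitosis genes listed were called lower in mEndo-like cells, where 32.9% of all genes were lower and 34% higher. Nuclear respiratory chain genes (80 of 96 lower, 3 higher, median -0.47) and cytosolic ribosomal protein genes (85 of 93 lower, 3 higher, -0.46) lay in the direction of the mitochondrial ribosomal protein genes. Mitochondrially encoded mRNAs lay in the other direction, with 12 of 13 higher in mEndo-like cells (0.43). By total counts the median of all genes moved to 0.20 and that of the 78 genes to -0.30, with 58 called lower (25.5% of all genes) and 0 higher (44.1%).

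The question of the knockout was addressed in each class by testing eKO against control libraries. In mEndo-like cells, which line the ventricular wall, mitochondrial ribosomal protein transcripts summed to 4701, 4574, 5163 and 5898 CPM. Both eKO libraries lay above both controls, 19.3% higher on average, or a log2 ratio of 0.25 (0.15 without eKO replicate 2; 4637 ± 89.9 and 5530.1 ± 519.7 CPM, SD, n = 2 each); the exact two-sided permutation test gave p = 0.333, the smallest that 2 libraries against 2 allow. Fitted changes were above 0 for 75 of 78 genes (50.4% of all 12948 genes tested), with a median log2 fold change of 0.32 (quartiles 0.19 and 0.41) against 0.00 over all genes and 0.18 over genes of like length and expression. The median was 0.32 for each subunit, and 59 genes lay above their like genes. Groups did not overlap for 53 genes that were higher in eKO (20% of all genes tested and 32.8% of like genes). They did not overlap for 2 that were lower (33 and 17.9%), *Mrps28* and *Mrps9*.

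By the edgeR test, 2 of the 78 genes rose in mEndo-like cells (1.68% of all genes tested did) and 0 fell (2.02%, together 3.7%), while 39 had an unadjusted p under 0.05 and all 39 of them were higher (21.6% of all genes). DESeq2 also called 2. *Mrps6* (chr16:92058270-92112227, plus strand), a small subunit gene, had 36.3, 36.7, 50.6 and 65.9 CPM (0.74 ± 0.16, edgeR adjusted p = 0.0293). The controls were nearly equal and both eKO libraries were above them, eKO replicate 2 more so. *Slc5a3*, a myo-inositol transporter gene on the same strand whose transcripts overlap *Mrps6*, had 13.6, 14.0, 16.5 and 16.9 CPM (0.33 ± 0.18, adjusted p = 0.306), and UMIs of the 2 genes could be assigned to either. *Mrps15* (chr4:126046925-126055532, plus strand), a small subunit gene with no overlapping gene, had 63.5, 59.6, 81.7 and 92.2 CPM (0.56 ± 0.13, edgeR adjusted p = 0.0415). Here too the groups were well apart, and *Mrps15* was higher without overlap in all 7 classes.

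Both calls depended on which libraries were kept. *Mrps6* was not called without control replicate 1 (0.71, edgeR adjusted p = 0.0529) or without eKO replicate 2 (0.52, 0.0881). *Mrps15* was not called without control replicate 1 (0.59, adjusted p = 0.123), control replicate 2 (0.54, 0.151) or eKO replicate 2 (0.45, 0.0935), nor when scaled by total counts (0.50, 0.0533) or gated by the wider margin (0.53, 0.0566). The count of genes called higher was 0 without control replicate 1 (1.62% of all genes in that fit), 1 without control replicate 2 (2.21%), 30 without eKO replicate 1 (6.25%) and 0 without eKO replicate 2 (2.03%), and the median change was 0.43 without eKO replicate 1 and 0.20 without eKO replicate 2. In these fits the group left with 1 library was assumed to vary as the other did.

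Other genes of known role were not called in mEndo-like cells. *Mrps12*, a protein of the decoding centre, had 68.9, 62.3, 83.6 and 94.3 CPM (0.50 ± 0.13, edgeR adjusted p = 0.0606), and *Mrpl12* had 80.8, 82.5, 95.6 and 124.2 CPM (0.49 ± 0.15, adjusted p = 0.0897). In both, eKO lay above control in all libraries. *Mrps22* and *Mrps14*, each linked to cardiomyopathy in patients, had 15.0, 15.7, 19.8 and 21.3 CPM (0.48 ± 0.17, adjusted p = 0.147) and 122.6, 109.6, 126.9 and 163.9 CPM (0.38 ± 0.15, adjusted p = 0.162). *Mrpl58*, a peptidyl-tRNA hydrolase that rescues stalled ribosomes, had 76.4, 77.2, 86.0 and 105.0 CPM (0.37 ± 0.14, 0.149). For these 3 genes too the groups did not overlap. Smaller differences were found for *Mrps34* (50.4, 51.2, 51.2 and 60.6 CPM; 0.20 ± 0.14, adjusted p = 0.446) and *Mrpl3* (36.7, 37.5, 38.2 and 39.9 CPM; 0.13 ± 0.14, 0.630), and *Mrps36* was level at 0.00 ± 0.14.

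The 3 paralogs of *Mrps18* all had fitted changes above 0 in mEndo-like cells, and none was called. *Mrps18a*, whose protein is part of the large subunit despite its name, had 51.7, 51.2, 61.8 and 77.6 CPM (0.50 ± 0.15, edgeR adjusted p = 0.0865). *Mrps18b* had 16.1, 22.1, 22.2 and 29.5 CPM (0.51 ± 0.21, 0.189), and *Mrps18c* had 73.2, 74.7, 75.6 and 78.9 CPM (0.12 ± 0.12, 0.616). None overlapped between groups, although control replicate 2 and eKO replicate 1 were nearly equal for *Mrps18b*. On the low side, *Mrps28* had 64.1, 65.8, 51.2 and 60.03 CPM (-0.16 ± 0.14, adjusted p = 0.528) and *Mrps9* had 47.0, 48.8, 44.2 and 45.8 CPM (-0.03 ± 0.13, 0.920). *Mrps28*, the longest of the set, was lower without overlap in 4 classes. Of 7284 genes tested in every class, 28.3% were so in at least 4. *Mrps28* was lowest in eKO replicate 1 in all 7 classes. Its like genes in mEndo-like cells had a median of -0.18. The sign of *Mrps9* turned without control replicate 2 (0.03) and without eKO replicate 1 (0.01).

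**Figure D3:**
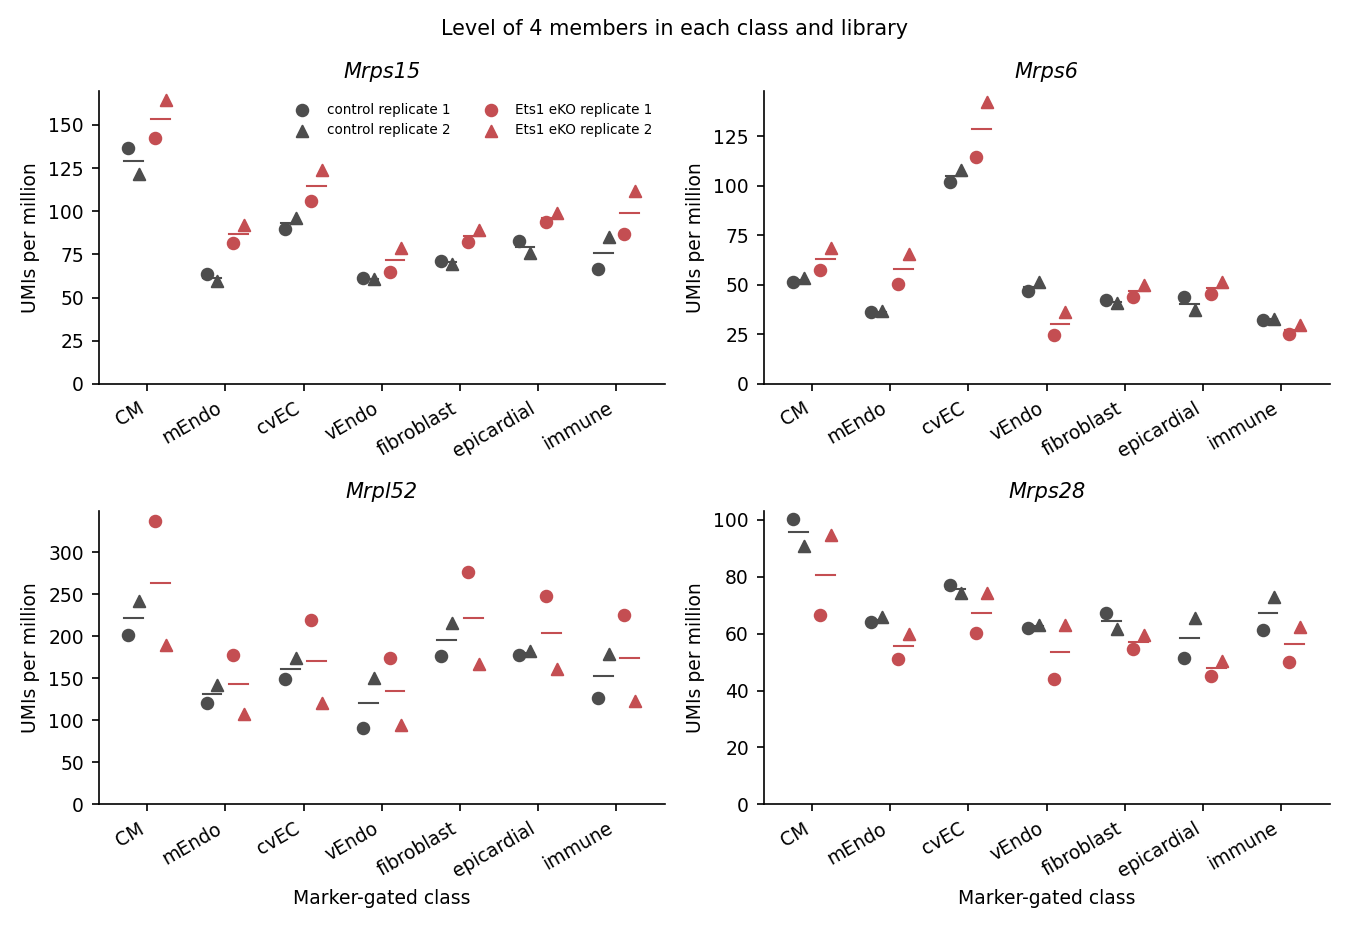
Level (CPM, y axis) of *Mrps15*, *Mrps6*, *Mrpl52* and *Mrps28* in each class (x axis), 1 point per library (control grey, *Ets1* eKO red; circles replicate 1, triangles replicate 2). *Mrps15* is higher in both eKO libraries in all 7 classes, whereas *Mrpl52* is highest in eKO replicate 1 in all 7.

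CMs, which Tie2Cre does not target, had changes of like size. The sums were 8697, 8074, 8961 and 10150.3 CPM, 14.0% higher on average and without overlap (log2 ratio 0.19, and 0.0958 without eKO replicate 2; exact permutation p = 0.333, the smallest possible). Of the 78 genes, 76 had fitted changes above 0 (52.1% of all 16845 genes tested), and the median log2 fold change was 0.31 (quartiles 0.24 and 0.36), against 0.02 over all genes and 0.26 over genes of like length and expression. Groups did not overlap for 37 genes higher in eKO (11.5% of all genes) and 1 lower (36.3%). By edgeR 0 passed the test in either direction (0% of all genes), 16 had an unadjusted p under 0.05, all of them higher (9.97% of all genes), and DESeq2 called 0. Without eKO replicate 1 edgeR called 43, all higher (8.02% of all genes in that fit), and without eKO replicate 2 it called 0 (0.174% higher); the median was 0.45 without the former and 0.17 without the latter. Scaled by total counts, the median of all genes moved to -0.09 and that of the 78 genes to 0.20.

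*Mrpl16* showed the largest difference without overlap in CMs, with 63.2, 53.6, 65.5 and 82.3 CPM (0.45 ± 0.16, edgeR adjusted p = 0.477), followed by *Mrpl20* with 140.8, 125.9, 142.2 and 189.8 CPM (0.43 ± 0.18, 0.477). In both, eKO replicate 1 was only slightly above control replicate 1. *Mrpl12* had 328.0, 310.8, 342.7 and 442.0 CPM (0.41 ± 0.18, adjusted p = 0.477), and *Mrps36* 225.3, 214.5, 241.9 and 236.4 CPM (0.23 ± 0.13, 0.494). *Mrps2*, the least counted gene, was lower without overlap at 12.0, 12.5, 10.4 and 11.4 CPM (-0.06 ± 0.12, 0.843), a sign that turned without eKO replicate 1 (0.02).

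In cvEC-like cells the summed level was 6339, 6169, 6505 and 7355 CPM, 10.8% higher in eKO without overlap (log2 ratio 0.15, and 0.0569 without eKO replicate 2; exact permutation p = 0.333). Fitted changes were above 0 for 69 of 78 genes (51.6% of 11450 genes tested), with a median of 0.20 against 0.01 over all genes and 0.15 over genes of like length and expression, and the median was 0.27 for the small and 0.16 for the large subunit. By total counts the median was 0.12 (-0.07 over all genes). By edgeR 0 genes were called higher (0.576% of all genes) or lower (0.349%), 17 had an unadjusted p under 0.05, all higher (13%), and DESeq2 called 0. Without eKO replicate 1 edgeR called 19 higher (4.13% of all genes), and without eKO replicate 2 it called 1 (*Mrpl52*; 1.99%), with medians of 0.32 and 0.08. Values of the groups lay apart for 27 higher (14.5% of all genes) and 4 lower genes (*Mrps28*, *Mrps22*, *Mrpl3* and *Mrpl10*; 30.9%). *Mrpl22*, near the peptide exit tunnel, had 46.3, 31.2, 51.0 and 58.9 CPM (0.56 ± 0.19, edgeR adjusted p = 0.250), and *Mrps12* had 75.8, 70.1, 92.8 and 105.0 CPM (0.52 ± 0.14, 0.15001). The controls differed from each other by more for *Mrpl22* than for *Mrps12*. *Mrpl3*, at 42.7, 45.8, 38.1 and 40.0 CPM, and *Mrps28*, at 77.2, 74.4, 60.2 and 74.2 CPM, were lower by -0.09 ± 0.15 each (edgeR adjusted p = 0.821 and 0.828). The sign of *Mrps28* turned without eKO replicate 1 (0.06), and both signs turned in cells outside the cycle.

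In vEndo-like cells, the smallest class, the summed level was 4960, 4917, 5016 and 5812 CPM, 9.64% higher in eKO (log2 ratio 0.13, and 0.0226 without eKO replicate 2; exact permutation p = 0.333), and only eKO replicate 2 stood clearly apart. Of 77 genes tested, 62 had fitted changes above 0 (51.5% of 8849 genes tested), with a median of 0.17 against 0.01 over all genes and 0.14 over genes of like length and expression. By edgeR 0 were called higher (0.147% of all genes) or lower (0.124%), 8 had an unadjusted p under 0.05 (10.9% of all genes), 6 of them higher, and DESeq2 called 0; without eKO replicate 1 edgeR called 1 (*Mrpl22*; 0.619% of all genes were called higher), and without eKO replicate 2 the median was 0.06. Without overlap between groups stood 21 higher (16.4% of all genes) and 6 lower genes (25.1%). *Mrps18b* had 17.3, 24.6, 37.6 and 50.5 CPM (1.11 ± 0.32, edgeR adjusted p = 0.209) and *Mrpl22* 31.6, 23.5, 36.4 and 64.8 CPM (0.90 ± 0.33, 0.350). In both, eKO replicate 2 was highest. *Mrps6*, higher in mEndo-like cells, was here lower in both eKO libraries, at 46.8, 51.3, 24.7 and 36.3 CPM (-0.65 ± 0.29, adjusted p = 0.438), and *Mrpl4* was 38.7, 52.3, 33.8 and 23.7 CPM (-0.59 ± 0.31, 0.525).

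Fibroblast-like cells may descend in part from Tie2Cre-expressing cells, which was not measured here. Their summed levels were 5035, 4779, 5074 and 5699 CPM, 9.78% higher in eKO without overlap. The log2 ratio was 0.13 (exact permutation p = 0.333), and 0.0484 without eKO replicate 2. Fitted changes were above 0 for 73 of 78 genes (51.5% of 14718 genes tested), with a median of 0.22 against 0.01 over all genes and 0.14 over genes of like length and expression, and 64 genes lay above their like genes. With total counts as the scale the median was 0.12 (-0.08 over all genes). By edgeR 0 were called higher (0.00679% of all genes) or lower (0.0679%, together 0.0747%), 13 had an unadjusted p under 0.05, all higher (11.9%), and DESeq2 called 0. Without eKO replicate 1 edgeR called 1, *Mrpl12* (0.74, adjusted p = 0.0462; 0.105% of all genes were called higher), and the median was 0.35, and without eKO replicate 2 the median was 0.10; without control replicate 2 it was 0.13. Values of the groups lay apart for 22 higher (12.9% of all genes) and 3 lower genes (*Mrps28*, *Mrpl10* and *Mrps27*; 34%). *Mrpl12* had 81.4, 79.6, 88.2 and 125.6 CPM (0.50 ± 0.17, edgeR adjusted p = 0.308) and *Mrps18b* 25.5, 22.8, 26.4 and 35.2 CPM (0.44 ± 0.17, 0.363). Most of either difference lay in eKO replicate 2. *Mrpl10*, at 17.9, 19.8, 15.8 and 15.7 CPM (-0.16 ± 0.14, 0.662), and *Mrps28*, at 67.4, 61.5, 54.6 and 59.6 CPM (-0.08 ± 0.12, 0.811), were lower, the latter only while control replicate 1 was kept (0.01 without it).

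In epicardial-like cells the sums were 4826, 4636, 5064 and 5499.5 CPM, 11.6% higher in eKO without overlap (log2 ratio 0.16, and 0.0982 without eKO replicate 2; exact permutation p = 0.333). Fitted changes were above 0 for 60 of 78 genes (51% of 9599 genes tested), with a median of 0.22, against 0.01 over all genes and 0.09 over genes of like length and expression. By edgeR 0 were called higher (0.0104% of all genes) or lower (0.0417%, together 0.0521%), 7 had an unadjusted p under 0.05, all higher (6.66%), and DESeq2 called 0; 1 gene, *Mrps5*, was called without control replicate 2 (1.38, edgeR adjusted p = 0.0168) and without eKO replicate 2 (1.346, 0.00242), fits that called 0.0787 and 0.286% of all genes higher, with medians over the 78 genes of 0.14 and 0.13. Without overlap between groups stood 24 higher (13.3% of all genes) and 9 lower genes (25.2%). *Mrps5*, a small subunit protein, had 25.7, 43.0, 80.9 and 44.7 CPM (0.99 ± 0.30, edgeR adjusted p = 0.533), with eKO replicate 1 far above the rest. *Mrpl47* had 5.72, 7.92, 10.97 and 12.1 CPM (0.83 ± 0.48, 0.759). *Mrpl37*, at 15.3, 13.6, 7.54 and 9.32 CPM (-0.72 ± 0.43, 0.769), and *Mrps27*, at 15.3, 20.4, 11.7 and 11.2 CPM (-0.55 ± 0.39, 0.808), were lower in both eKO libraries.

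Immune-like cells, which Tie2Cre also reaches, showed the smallest difference. Their sums were 4878, 5138, 4907 and 5713 CPM, 6.03% higher on average with overlapping groups (exact permutation p = 0.667, where 0.333 is the smallest possible); without eKO replicate 2 the log2 ratio was -0.03. Fitted changes were above 0 for 57 of 77 genes tested (51% of 9328 genes tested), with a median of 0.13 (-0.06 without eKO replicate 2, 0.30 without eKO replicate 1) against 0.01 over all genes and 0.06 over genes of like length and expression. By edgeR 0 were called higher (0.0429% of all genes) or lower (0% of all genes), 1, *Mrps18b*, had an unadjusted p under 0.05 (4.01% of all genes), and DESeq2 called 0. Groups did not overlap for 18 higher (13.4% of all genes) and 8 lower genes (18.8%). *Mrps27* had 9.13, 8.25, 11.4 and 21.3 CPM (0.93 ± 0.47) and *Mrps18b* 27.4, 15.1, 33.4 and 41.1 CPM (0.78 ± 0.32), and both were highest in eKO replicate 2. *Mrpl37*, at 14.9, 22.0, 11.4 and 10.6 CPM (-0.66 ± 0.40), and *Mrps10*, at 32.4, 37.1, 24.3 and 21.3 CPM (-0.56 ± 0.28), were lower, and all 4 genes had an edgeR adjusted p of 0.999. The sign of *Mrps10* turned in cells outside the cycle once eKO replicate 2 was also left out.

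**Figure D4:**
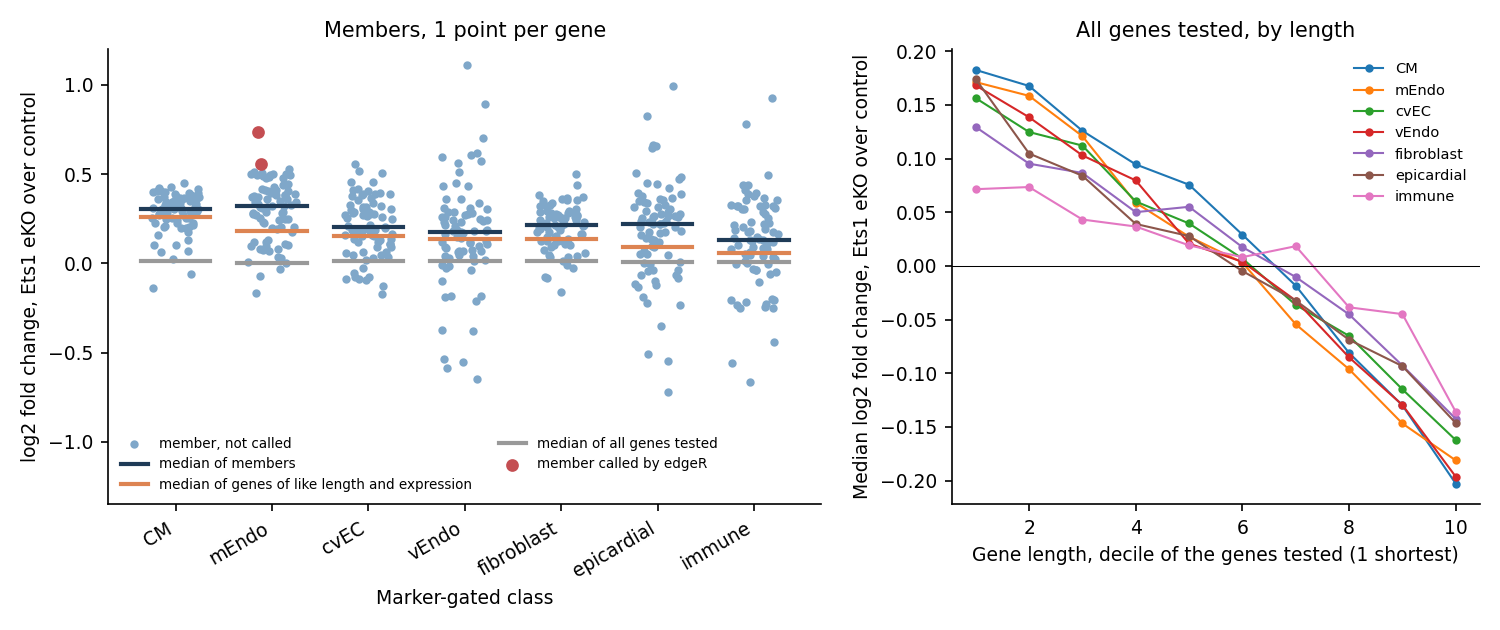
Left, fitted log2 fold change (*Ets1* eKO over control, y axis) of each mitochondrial ribosomal protein gene (1 point each) by class (x axis), with lines at the medians of these genes, of genes of like length and expression, and of all genes tested; the 2 genes called by edgeR, both in mEndo-like cells, are red. Right, median log2 fold change of all genes tested by decile of gene length (x axis, 1 the shortest) in each class, which runs from 0.18 to -0.20 in CMs and from 0.17 to -0.18 in mEndo-like cells.

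Gene length moved with these changes in every class. Over all genes tested in CMs, the median log2 fold change was 0.18 in the shortest decile and -0.20 in the longest, and in mEndo-like cells 0.17 and -0.18. The corresponding values were 0.16 and -0.16 in cvEC-like, 0.17 and -0.20 in vEndo-like, 0.13 and -0.14 in fibroblast-like, 0.17 and -0.15 in epicardial-like and 0.07 and -0.14 in immune-like cells. Mitochondrial ribosomal protein genes are short. Their median was 0.31 in CMs, against 0.26 over genes of like length and expression, and 0.32 against 0.18 in mEndo-like cells. In CMs these were 0.45 against 0.36 without eKO replicate 1 and 0.17 against 0.10 without eKO replicate 2. Without control replicates 1 and 2 they were 0.37 against 0.32 and 0.24 against 0.22. In mEndo-like cells they were 0.43 against 0.24 and 0.20 against 0.09 without eKO replicates 1 and 2. There the values without control replicates 1 and 2 were 0.33 against 0.20 and 0.34 against 0.18. With 5 bins the like genes had medians of 0.24 in CMs and 0.20 in mEndo-like cells. Whether the excess differed between the classes was not tested. The share of like genes higher in eKO without overlap was 26.8% in CMs, 22.1% in cvEC-like, 23.3% in vEndo-like, 18.9% in fibroblast-like, 18.5% in epicardial-like and 17.2% in immune-like cells. Measures of RNA content moved in the same libraries: mitochondrially encoded UMIs made up 6.12 and 6.14% of UMIs in control CMs and 4.88 and 4.72% in eKO CMs, and cytosolic ribosomal protein UMIs 13.0, 12.9, 15.1 and 14.5%. In mEndo-like cells these were 3.93, 4.04, 3.07 and 3.16%, and 16.01, 16.8, 18.8 and 17.3%. The part of length, RNA quality or depth in the changes was not tested, and with 2 libraries a group they cannot be told apart from genotype.

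Much of the difference lay in eKO replicate 2. It was the highest library for 65 of the 78 genes in CMs, for 60 in mEndo-like cells, for 55 in cvEC-like cells and for 60 in fibroblast-like cells, and it was also the shallowest in every class, with a median of 8296 UMIs per CM against 12554, 13125 and 12988 in the other libraries. Endothelial markers in CMs summed to 67.1, 50.7, 56.3 and 153.4 CPM, with *Egfl7* the most abundant and 0 of 8 without overlap. Immune markers in CMs summed to 5.29, 6.54, 10.3 and 21.0 CPM. All 8 were higher in eKO without overlap (11.5% of all genes were), with a median of 1.69 and 0 called. In eKO replicate 1 the classes were less alike. There 41 genes lay above and 10 below both controls in CMs (25.3 and 50.4% of all genes), 57 and 11 in mEndo-like (31.7 and 43.7%), 33 and 21 in cvEC-like (28.6 and 44.3%), 28 and 30 in vEndo-like (31.6 and 42.2%), 27 and 27 in fibroblast-like (25.9 and 48.8%), 32 and 19 in epicardial-like (25.5 and 41.3%) and 22 and 33 in immune-like cells (29.6 and 35.8%). *Mrpl52*, the most counted gene, followed another pattern, with 120.2, 141.4, 177.7 and 107.3 CPM in mEndo-like and 201.3, 241.8, 336.7 and 189.0 CPM in CMs: highest in eKO replicate 1 in all 7 classes and lowest in eKO replicate 2 in 6. *Mrps21*, singled out after its values were seen, was also highest in eKO replicate 1 in all 7 classes (123.3, 139.5, 178.4 and 127.5 CPM in mEndo-like cells).

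Besides *Mrps15* in 7 classes, *Mrpl35* and *Mrps33* were higher without overlap in 6, counted after their values were seen. Of 7284 genes tested in every class, 80 (1.1%) were so in at least 6. The classes come from the same 4 libraries, so the recurrence of a gene is not a repeat of the experiment.

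Whether the change differed between classes was tested with the class by condition term. Between mEndo-like cells and CMs, edgeR called 0 of 78 genes higher (0.256% of all 16379 genes) or lower (0.0916%), with 1, *Mrps6*, at an unadjusted p under 0.05 and 0 by DESeq2, and the median log2 difference of changes was 0.04 against -0.01 over all genes. Between cvEC-like cells and CMs 0 were called higher (0.2%) or lower (0.0625%), with 2, *Mrpl23* and *Mrps22*, at an unadjusted p under 0.05 and 0 by DESeq2 (median -0.05 against 0.00). Between mEndo-like and cvEC-like cells 0 were called higher (0.889%) or lower (0.958%), with 9 at an unadjusted p under 0.05 and 0 by DESeq2 (median 0.11 against 0.03). The unadjusted counts of this paragraph have no share of all genes beside them, and no result is read from them. The calls of *Mrps6* and *Mrps15* in mEndo-like cells were thus not shown to differ from these other classes.

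The promoters were set beside the knockout. In mEndo-like cells the 25 genes with ETS letters had a median log2 fold change of 0.28 and the 44 without them 0.34, and in CMs 0.30 and 0.33. In vEndo-like cells the order was the reverse (0.21 with and 0.17 without), and in the other 4 classes genes with the letters again had the lower median. *Mrps6* and *Mrps15* were both among the genes without these letters. Other genes tested in mEndo-like cells had medians of 0.05 with the letters and -0.01 without.

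Cell cycle state was compared next. In mEndo-like cells and CMs the share of cycling cells was highest in eKO replicate 2, while eKO replicate 1 lay close to a control: such cells (at least 1 UMI of S, G2 and mitosis genes per 1000) made up 17.0, 24.5, 24.0 and 35.9% of mEndo-like cells and 44.7, 39.5, 45.3 and 51.5% of CMs. In mEndo-like cells the G2 and mitosis list rose in part, with a median of 0.67. Of its 10 genes 3 were called higher (*Cenpf*, *Birc5* and *Nusap1*), where 1.68% of all genes were. *Cenpf*, a kinetochore protein, had 85.7, 108.7, 149.6 and 172.8 CPM (0.79 ± 0.15, edgeR adjusted p = 0.0176) and *Birc5*, part of the chromosomal passenger complex, 73.7, 83.3, 107.7 and 169.3 CPM (0.88 ± 0.19, 0.0307). Controls lay below eKO for both genes. Restricted to cells outside the cycle, the median of the mitochondrial ribosomal protein genes in mEndo-like cells was again 0.32, with *Mrps15* called (0.56, edgeR adjusted p = 0.0397) and *Mrps6* not (0.65, 0.0513). In CMs it was 0.30.

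Within a class, cycling cells carried more of these transcripts than other cells of the same libraries. In CMs 55 of 78 genes were higher in cycling cells (30.9% of all 15271 genes tested) and 4 were lower (28.9%), by edgeR. The median log2 difference was 0.13, against -0.01 over all genes and 0.06 over genes of like length and expression. DESeq2 called 43 higher (23.5% of all genes) and 4 lower (19.7%). By total counts the median of the 78 genes was 0.0840, with 41 called higher (25.9% of all genes) and 6 lower (34.5%). *Mrpl18*, a large subunit protein, had 369.4, 324.7, 355.8 and 419.2 CPM in cycling and 263.7, 236.0, 266.1 and 319.9 CPM in other CMs (0.49 ± 0.02, adjusted p = 8.4e-11). Within each library the cycling value was the higher. *Mrpl49* (0.48 ± 0.03) and *Mrpl14* (0.42 ± 0.02) followed. *Mrps34*, which stabilises the small subunit, was lower, at 63.6, 60.7, 62.0 and 81.5 CPM against 72.7, 69.6, 73.4 and 90.6 CPM (-0.15 ± 0.03, edgeR adjusted p = 0.000217), as were *Mrps12* (-0.08 ± 0.02), *Mrpl34* (-0.07 ± 0.02) and *Mrps21*.

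In mEndo-like cells the summed level was 5228, 4905, 5539 and 6109.8 CPM in cycling and 4554, 4422, 4992 and 5732 CPM in other cells. By edgeR 25 genes were called higher (16.3% of all 11705 genes tested) and 0 lower (12.2%). DESeq2 called 9 higher (9.24% of all genes), a count near the share of all genes, and 0 lower (3.97%). The median was 0.16, against -0.02 over all genes and 0.03 over genes of like length and expression. *Mrpl51* had 147.3, 150.6, 152.4 and 165.7 CPM in cycling and 100.2, 99.96, 97.5 and 118.7 CPM in other cells (0.60 ± 0.06, edgeR adjusted p = 4.6e-10). *Mrpl18* had 162.4, 123.7, 158.1 and 185.9 CPM against 85.1, 90.9, 102.3 and 137.2 CPM (0.64 ± 0.07, 1.8e-09). *Mrps2* had 15.1, 11.7, 14.1 and 11.9 CPM against 8.37, 7.64, 7.77 and 7.78 CPM (0.77 ± 0.18, 0.00124). All 3 were higher in cycling cells in each of the 4 libraries.

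Fibroblast-like cells gave 61 genes higher in cycling cells (27.5% of all 13035 genes tested) and 0 lower (25.7%) by edgeR. DESeq2 called 35 higher (18.6% of all genes) and 0 lower (12.5%). The median was 0.25, against -0.02 over all genes and 0.10 over genes of like length and expression. *Mrpl51* had the largest difference, with 130.4, 123.1, 132.7 and 158.8 CPM in cycling and 84.9, 80.5, 80.7 and 95.3 CPM in other cells (0.78 ± 0.05, edgeR adjusted p = 9.7e-11), followed by *Mrpl18* (0.73 ± 0.05) and *Mrpl28* (0.70 ± 0.06). *Mrps2*, by contrast, was not called there (-0.07 ± 0.16, adjusted p = 0.719). By total counts the median of all genes moved to -0.13 in fibroblast-like cells and that of the 78 genes to 0.14. There 36 were called higher (19.8% of all genes) and 0 lower (36.9%). Of the 13 mitochondrially encoded mRNAs, 13 were called lower in cycling CMs (28.9% of all genes were) and 9 in cycling mEndo-like cells (12.2%). In fibroblast-like cells 4 were (25.7% of all genes), a share near that of all genes.

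**Figure D5:**
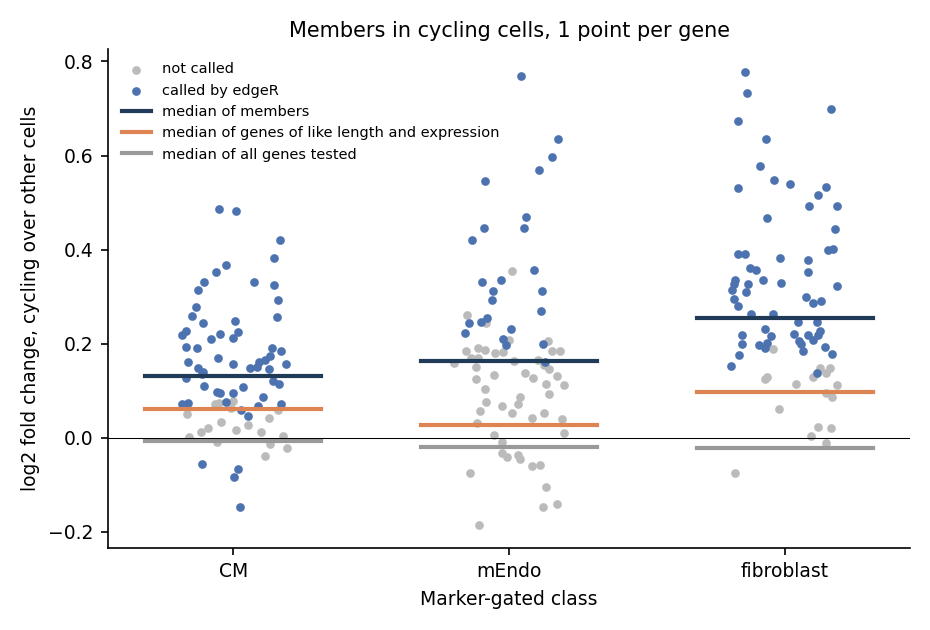
Log2 difference between cycling and other cells (y axis) of each mitochondrial ribosomal protein gene, 1 point per gene, in CM-like, mEndo-like and fibroblast-like cells (x axis), with lines at the medians of these genes, of genes of like length and expression, and of all genes tested. The medians of the 78 genes are 0.13, 0.16 and 0.25.

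Other parts of the mitochondrial translation machinery were set beside the 78 genes under the knockout. The 5 mitochondrial ribosome proteins with other symbols all had changes above 0, with medians of 0.33 in CMs and 0.41 in mEndo-like cells, where they summed to 355.9, 345.4, 401.9 and 473.9 CPM. Assembly factors (median 0.09 in mEndo-like cells), translation factors (0.01), mitochondrial tRNA ligases (-0.00), genes of mitochondrial DNA upkeep and transcription (0.15) and regulators (0.04) lay closer to 0. In CMs these medians were 0.13, 0.16, 0.06, 0.11 and -0.18, and 8 of the 10 regulators were lower without overlap there (36.3% of all genes were). None of these lists had a gene called by edgeR in any of the 7 classes. Nuclear respiratory chain genes had medians of 0.25 in CMs and 0.29 in mEndo-like cells, and 2 were called: *Cox6b2*, a cytochrome c oxidase subunit, in mEndo-like cells (10.8, 9.06, 21.4 and 21.8 CPM; 1.17 ± 0.19, edgeR adjusted p = 0.00576) and *Ndufa4l2*, a hypoxia-induced relative of *Ndufa4*, in cvEC-like cells (5.61, 5.65, 13.9 and 15.3 CPM; 1.46 ± 0.25, 0.0207).

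The mRNAs that mitochondrial ribosomes translate were lower in sum but not throughout. The 13 mitochondrially encoded mRNAs summed to 61196, 61364, 48773 and 47231 CPM in CMs and 39319, 40412, 30652 and 31591 CPM in mEndo-like cells. Both eKO libraries were below both controls in each class. Their median log2 fold change was -0.22 in CMs and -0.23 in mEndo-like cells, and edgeR called 0 of them. Single mRNAs went both ways, with fitted changes above 0 for 5 of 13 in CMs and 4 of 13 in mEndo-like cells. Lower without overlap were 7 in CMs (36.3% of all genes were) and 8 in mEndo-like cells (33% of all genes). Cytosolic ribosomal protein genes had medians of 0.30 in CMs and 0.18 in mEndo-like cells; the pattern of that list also takes in S6 kinase genes, of which *Rps6ka1* (23.6, 21.9, 12.6 and 11.8 CPM; -0.84, edgeR adjusted p = 0.0248) and *Rps6kl1* (-2.32, 0.0434) fell in mEndo-like cells, and *Rpl39l* rose in cvEC-like cells (0.362, 0.332, 4.23 and 2.72 CPM; 3.26, 0.0436). S phase genes had a median of 0.27 in mEndo-like cells with 0 called.

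Markers of other cell types were checked in mEndo-like cells, where the 2 calls were made. The 7 fibroblast markers summed to 571.5, 541.5, 827.5 and 785.3 CPM, with 3 (*Col1a2*, *Lum* and *Dcn*) called higher in eKO and *Col3a1* the most abundant, and the 5 cvEC markers to 98.8, 104.1, 165.9 and 190.9 CPM, with 1 (*Fabp4*, also the most abundant) called higher. Of the 9 cardiomyocyte markers 1, *Tnni1*, was called higher, as was the pericyte marker *Abcc9*, while *Nfatc1* (vEndo) and *Laptm5* (immune) were called lower. The 5 mEndo markers themselves summed to 2443, 2432, 2222 and 1981 CPM, with 0 called. Sums of the fibroblast and cvEC lists were higher in both eKO libraries, but *Col1a1*, *Pdgfra* and *Aplnr* of these lists were lower without overlap and not called (picked after values were seen). The part of these cells or transcripts in the changes of *Mrps6* and *Mrps15* was not tested.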

How the data were processed

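The authors deposited gene by cell UMI counts, made with Cell Ranger 7.1.0 against mm10 and not normalized; their notes also name Seurat 4.3.0. Barcodes with 200 to 7000 genes and at most 20% mitochondrial, 35% cytosolic ribosomal and 2% hemoglobin UMIs were kept; gating also needed 1000 UMIs. A marker score was the mean of log counts (10000 UMIs per cell), each divided by its 0.99 quantile. A class needed a lead of 0.15 over the next list and 3 markers detected, an endothelial subtype a lead of 0.1 and 1 marker. Cycling cells had at least 1 UMI of the S, G2 and mitosis lists per 1000. Of the barcodes kept, 2910 had too few UMIs, 2450 were not gated (no list matched, or none led by the margin), 780 were endothelial without a subtype, 230 mural and 1 erythroid.

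UMIs of each class were added up within a library and tested in R 4.3.3 with edgeR 4.0.16 (limma 3.58.1), TMM scaling and its filter on low counts, over all genes passing, at an adjusted p of 0.05. Comparisons of classes and of cycling cells had the library as a term. Genes of like length and expression were those outside the list in the same of 10 length and 10 expression bins. Other settings tried were DESeq2 1.42.0; scaling by total counts; every gene with a UMI; a replicate block; each library left out; at least 1000 genes and at most 10% mitochondrial UMIs; a gate margin 2 times as wide; the 5% of cells with most UMIs left out; cells outside the cycle; and 5 bins. Settings for the summed level, and the cells outside the cycle without eKO replicate 2, were added after the data were seen. Python 3.11.15, numpy 2.4.6, pandas 2.3.3, scipy 1.17.1 and matplotlib 3.10.9 made tables and figures, and the code was run on simulated data.

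Genes were named by rule: the 5 most counted; per class up to 5 per direction past the threshold without overlap, or where under 3 passed, the 2 largest changes without overlap per direction; the 3 largest called differences per direction between classes or cycling and other cells; and *Mrpl12*, *Mrpl3*, *Mrpl44*, *Mrpl58*, *Mrps12*, *Mrps14*, *Mrps22*, *Mrps34*, *Mrps6*, *Mrps36* and the *Mrps18* paralogs. Genes named beside small counts were chosen after the values were seen. The members, the 11 related lists and the markers were chosen with earlier results of these data known.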

Additional observations from a re-analysis of the deposited data

Results flagged for a closer look

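The class by condition term of edgeR called 42 genes higher and 15 lower in mEndo-like against CM-like cells, 32 and 10 in cvEC-like against CM-like cells, and 116 and 125 in mEndo-like against cvEC-like cells. These counts depended on the libraries and the test. In the first 2 comparisons fewer genes were called without either control library. Without eKO replicate 1 more were called there, with more lower than higher. In the third, fewer were called without eKO replicate 2 and more without control replicate 2, and DESeq2 called 14 and 30. No mitochondrial ribosomal protein gene was among those called, and only *Ets1* and genes of the 11 related lists are given here. The log2 change of *Ets1* was lower by -1.48 in mEndo-like than in CM-like cells (edgeR adjusted p = 0.0199) and by -1.34 in cvEC-like than in CM-like cells (0.0223). Both calls were kept by DESeq2 and lost without either control library. The differences stayed about as large, at -1.58 and -1.38 in mEndo-like and -1.39 and -1.36 in cvEC-like cells without control replicates 1 and 2. In mEndo-like against cvEC-like cells the change was higher for *Cenpf* by 0.71 (edgeR adjusted p = 0.00399), *Birc5* by 0.62 (0.00574), *Nusap1* by 0.66 (0.0325), *Ube2c* by 0.55 (0.00994) and *Tpx2* by 0.61 (0.0265), all of them in the G2 and mitosis list. DESeq2 called 0 of these 5, edgeR without eKO replicate 2 also 0, and without control replicate 1 it called 3 (*Cenpf*, *Birc5* and *Ube2c*).

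Of 77 mitochondrial ribosomal protein genes tested in every class, 18 were higher without overlap in at least 1 class and lower in at least 1 other, as were 25.6% of all 7284 such genes. Among those with the largest changes in a class, opposite changes whose difference was not tested were seen for *Mrps27*, whose change in epicardial-like cells minus that in immune-like cells was -1.48, and for *Mrps6*, higher in eKO in mEndo-like and lower in vEndo-like cells, a difference of 1.39. Mitochondrial ribosomal protein UMIs also had a higher mean in eKO in cells that entered no class, with most of the difference in eKO replicate 2. The ratio of group means was 1.10 in endothelial cells without a subtype (5328, 5386, 5395 and 6419.99 CPM) and 1.16 in cells left ungated, those with mixed scores included (5703, 4846, 5426 and 6783 CPM), where the groups overlapped.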

How the results depend on the processing

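The median change of the mitochondrial ribosomal protein genes stayed above 0 in 90 of 91 combinations of class and setting. In the settings where it was computed, the median of genes of like length and expression also stayed above 0, with 1 exception. This was immune-like cells without eKO replicate 2 (-0.0126, against -0.0570 for the mitochondrial ribosomal protein genes). In vEndo-like cells the like genes were the higher without eKO replicate 2 (0.0592 against 0.0553) and without control replicate 1 (0.182 against 0.180). Counts between classes moved by at most 1.5 times in 21 of 21 settings, and 0 genes differed in their eKO effect in 21 of 21. Counts called under the knockout depended on the libraries. With each library left out in turn, edgeR called 0 to 43 in CMs (median 0.17 to 0.45), 0 to 30 in mEndo-like (0.20 to 0.43), 0 to 19 in cvEC-like (0.0821 to 0.32), 0 to 1 in vEndo-like (0.0553 to 0.28), 0 to 1 in fibroblast-like (0.10 to 0.35), 0 to 1 in epicardial-like (0.13 to 0.28) and 0 in immune-like cells (-0.0570 to 0.30). Log2 ratios of the sums ranged from 0.0958 to 0.28 in CMs, 0.15 to 0.35 in mEndo-like, 0.0569 to 0.23 in cvEC-like, 0.0226 to 0.24 in vEndo-like, 0.0484 to 0.22 in fibroblast-like, 0.0982 to 0.22 in epicardial-like and -0.0294 to 0.19 in immune-like cells.

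Total count scaling lowered the median in all 7 classes, to 0.20 in CMs, 0.26 in mEndo-like, 0.12 in cvEC-like, 0.12 in vEndo-like, 0.12 in fibroblast-like, 0.15 in epicardial-like and 0.0961 in immune-like cells, and left 1 gene, *Mrps6*, called in mEndo-like cells. The wider gate margin also left 1 (*Mrps6*), and cells outside the cycle 1 (*Mrps15*). Without a filter on low counts 12 were called in mEndo-like (2.98% of all genes were called higher), 1 (*Mrpl12*) in fibroblast-like (1.04%) and 1 (*Mrps5*) in epicardial-like cells (0.0955%). Cells outside the cycle with eKO replicate 2 left out, a setting added after the data were seen, gave 3 called (*Mrps5*, *Mrpl19* and *Mrpl52*; 1.74% of all genes were called higher) and a median of 0.15 in CMs, 0 (2.01%) and 0.19 in mEndo-like cells, 1 called (*Mrpl52*; 1.05%) in vEndo-like cells, 1 (*Mrps5*; 0.252%) and 0.12 in epicardial-like cells, and medians of 0.0205 in cvEC-like, 0.0849 in fibroblast-like and 0.00416 in immune-like cells. Between cycling and other cells DESeq2 called 9 genes higher in mEndo-like cells, where 9.24% of all genes were. In fibroblast-like cells it called 35 (18.6% of all genes), and total count scaling gave 36 (19.8%). The cause of these shifts was not tested.

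Signs turned for some of the named genes. Over the libraries left out, *Mrps2* in CMs ranged from -0.14 to 0.0188, *Mrps9* in mEndo-like cells from -0.0719 to 0.0254, *Mrps28* in cvEC-like cells from -0.27 to 0.0617 and in fibroblast-like cells from -0.18 to 0.00557. Outside the cycle *Mrps28* was 0.0229 and *Mrpl3* 0.0883 in cvEC-like cells, and with eKO replicate 2 also left out *Mrpl3* was 0.12 and *Mrps10* in immune-like cells 0.0464. *Ets1* in vEndo-like cells lost its call at the wider margin (-1.32, edgeR adjusted p = 0.231) and ranged from -1.40 to -1.10 over the libraries left out. In fibroblast-like cells it was called without the filter (-0.53, edgeR adjusted p = 0.0095).

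With the replicate number as a block, edgeR called 2 of these genes in mEndo-like cells and 0 in the other 6 classes, and it changed no call of a named gene or of *Ets1*. Medians under the block were 0.30 in CMs and 0.31 in mEndo-like cells. Libraries of the 2 groups share numbers, but nothing in the labels pairs them. Deviations of libraries with the same number correlated at -0.14 in CMs, 0.0253 in mEndo-like, -0.0850 in cvEC-like, -0.0373 in vEndo-like, -0.11 in fibroblast-like, -0.0113 in epicardial-like and 0.0366 in immune-like cells, and with 2 numbers no pairing was read from this. Depth limits what the smaller classes can show: vEndo-like cells numbered 449 and epicardial-like cells 637, and 2 libraries per group leave small changes untested in every class.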

Other observations

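Mitotic genes had medians on either side of 0 in the endothelial classes, and the difference of vEndo-like cells from other classes was not tested. In vEndo-like cells 8 of the 10 G2 and mitosis genes were lower without overlap (25.1% of all genes were), and edgeR called 0. All 10 had fitted changes below 0, with a median log2 fold change of -0.85. They summed to 1478, 1717, 664.7 and 1132 CPM there, against 1854, 1932, 1942 and 1995 CPM in cvEC-like cells, where the median was 0.12 and 0 were called. In epicardial-like cells all 10 had changes above 0, with a median of 0.50 and 0 called.

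Mitochondrial ribosomal protein transcripts were higher in cycling than in other cells of each library in cvEC-like, vEndo-like and immune-like cells too, which were not tested. In cvEC-like cells they summed to 6530, 6283, 6745 and 7464 CPM in cycling and 5937, 5718, 5891 and 6997 CPM in other cells, and in immune-like cells to 5446, 5755, 5282 and 6053 CPM against 4347, 4728, 4657 and 5318 CPM. Epicardial-like cells departed from this in control replicate 2, with 4322 CPM in cycling and 4683 CPM in other cells.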
